A study of Mus musculus with 3 samples.

Results

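The replication-dependent histone genes are the genes of the mouse Hist1, Hist2, Hist3 and Hist4 clusters, which encode the linker histone H1 and the core histones H2a, H2b, H3 and H4. They were taken as every gene whose symbol starts with Hist1h, Hist2h, Hist3h or Hist4h, which gave 69 of the 28692 genes in the deposited tables. H1 had 6 members, H2a 19, H2b 19, H3 12 and H4 13. The Hist1 cluster on chromosome 13 held 55 of them, Hist2 on chromosome 3 held 11, Hist3 on chromosome 11 held 2 and Hist4 on chromosome 6 held 1. The symbol Hist2h2bb named 2 genes, and the values given under it are those of the protein-coding gene. The other gene of that symbol is a lincRNA in GENCODE M21, and Hist1h2al is a processed pseudogene there.

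The cells were TEa cells, CD4 T cells whose transgenic receptor recognises an alloantigen of BALB/c mice. Naive, congenically marked wild-type TEa cells were transferred into C57BL/6 mice that then received BALB/c hearts, and were sorted 7 days later from the heart allograft or from the spleen. Each tissue gave 1 library of 3' single-cell RNA sequencing. A library of Ldha-/- TEa cells from the spleen was not analysed here. The labels and the design text do not state the number, sex or age of the mice or any pooling, and both libraries share the receptor transgene, the transfer and the graft. After filtering, 3980 T cells remained from the heart allograft with 42118883 unique molecular identifiers (UMIs, counts of captured RNA molecules), and 6561 from the spleen with 56174963. With 1 library per tissue there is no replicate check and no p-value, cells are not replicates, and the effect of the tissue cannot be told apart from that of its library. Intervals are exact 95% intervals and cover counting error only.

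The core histones form the protein spool around which DNA is wound in the nucleosome, and H1 binds the DNA that links nucleosomes. Copying the genome requires new histones, and the replication-dependent genes are switched on as cells enter S phase. Their mRNAs are the classical exception to polyadenylation: they end in a short stem-loop, which the stem-loop binding protein Slbp recognises, and they are degraded when replication stops. Some of these genes can also give polyadenylated transcripts, above all in cells that have stopped dividing. The 3' chemistry used here primes on poly(A), so a level below is a level of captured molecules, not of all histone mRNA. Levels are CPM, the UMIs of a gene scaled to a common total of UMIs of the same cells. They were not divided by length, and the order of genes by CPM mixes transcript number with capture.

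A cell was called cycling when at least 2 of 1000 UMIs drawn at random from it came from 10 proliferation genes, none of them a histone gene. This took 519 of 3980 heart cells, or 13.0% (12.01% to 14.1%), and 183 of 6561 spleen cells, or 2.79% (2.40% to 3.22%). In the heart 138 cycling cells stood at exactly 2 marker UMIs and 502 non-cycling cells at 1, and in the spleen these numbers were 44 and 379. The cycling cells held 79.2% of all histone UMIs in the heart and 60.2% in the spleen, against 25.8% of all UMIs in the heart and 5.32% of all UMIs in the spleen. Cycling cells had a median of 18926 UMIs in the heart and 14346 in the spleen, and non-cycling cells 7835 in the heart and 7946 in the spleen.

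Histone transcripts were far more abundant in cycling than in non-cycling cells of both tissues. In the heart they summed to 4164 CPM (4126 to 4203) in cycling cells and 380 CPM (373 to 387) in non-cycling cells, a ratio of 10.97 (10.7 to 11.2). In the spleen they summed to 6591 CPM (6500 to 6684) in cycling cells and 245 CPM (241 to 249) in non-cycling cells, a ratio of 26.9 (26.3 to 27.5). These ratios depend on where cycling begins: with a limit of 1 marker UMI the spleen had 3357 CPM in cycling and 241 CPM in non-cycling cells, and with a limit of 5 the heart had 5794 CPM in cycling and 835 CPM in non-cycling cells. A cycling cell gave on average 87.1 histone UMIs in the heart and 108 in the spleen, against 3.43 in a non-cycling heart cell and 2.04 in a non-cycling spleen cell. A gene was called higher or lower where 2 groups differed 2-fold or more on the log2(CPM + 1) scale, and genes under 10 CPM in both groups were left out. By that measure 37 of 37 members with enough UMIs were higher in cycling cells of the heart, where 8.57% of all genes were, and 43 of 44 in the spleen, where 11.9% of all genes were. The median log2 difference of the members was 2.85 in the heart and 3.92 in the spleen, against 0.03 in the heart and 0.10 in the spleen for all genes tested. None was lower in cycling cells, where 1.71% of all genes were lower in the heart and 3.75% in the spleen. Most of these members were counted through their cycling level, since only 9 in the heart and 7 in the spleen exceeded 10 CPM in non-cycling cells. Without a minimum CPM, 51 of 65 members were higher in the heart, where 5.04% of all genes were. In the spleen 57 of 63 were higher, where 9.07% of all genes were, and 1 was lower, where 3.71% were.

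Set side by side, the heart allograft and the spleen differed in opposite directions in the cycling and the non-cycling cells. Among cycling cells the summed level was lower in the heart than in the spleen, with a ratio of 0.632 (0.621 to 0.642). Among non-cycling cells it was higher in the heart, with a ratio of 1.55 (1.51 to 1.59), and with a limit of 5 marker UMIs it was 835 CPM in non-cycling heart cells and 299.7 CPM in non-cycling spleen cells. Over all T cells together the sum was 1355 CPM in the heart and 583 CPM in the spleen, a ratio of 2.33, beside the larger share of cycling cells in the heart. By gene, 10 of 22 members were 2-fold higher in the heart over all T cells, where 9.13% of all genes were, and 0 were lower, where 8.5% of all genes were. Some of the 10, such as Hist1h2ab at 26.5 CPM in the heart and 8.99 CPM in the spleen, were counted through the heart alone. Without a minimum CPM, 23 of 65 were higher, where 5.82% of all genes were, and 1 was lower, where 6.95% were. The lower sum of the cycling heart cells did not hold for the typical cell. The middle cycling cell had 3146 histone CPM in the heart and 1932 in the spleen, while the upper quartile was 6882 in the heart and 12497 in the spleen. The lower quartile was 669 in the heart and 624 in the spleen, so cycling spleen cells were spread more widely than cycling heart cells.

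**Figure D1:**
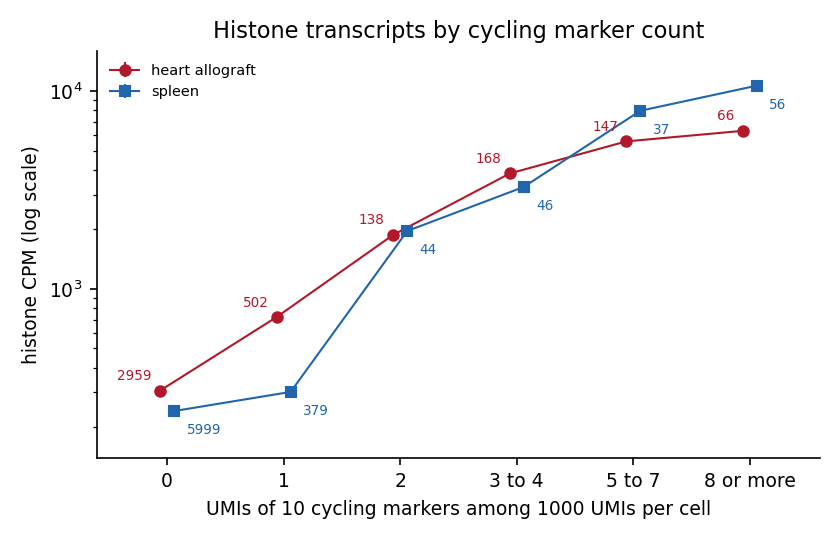
Summed histone CPM (log scale) of T cells grouped by the number of UMIs from 10 proliferation genes among 1000 drawn UMIs, in heart allograft (red circles) and spleen (blue squares); numbers are cells, and 95% counting intervals are mostly smaller than the points. Heart cells lie above spleen cells at 0 and 1 marker UMIs and below them at 5 or more.

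The level climbed with the count of proliferation markers in both tissues, as the plot of histone CPM by marker UMIs shows. With 0 marker UMIs it was 306 CPM in the heart and 241 CPM in the spleen, and with 1 it was 721 CPM in the heart and 302 CPM in the spleen. At 2 marker UMIs the tissues were close, with 1877 CPM in the heart and 1962 CPM in the spleen, and at 3 to 4 the heart had 3834 CPM and the spleen 3278 CPM. At 5 to 7 the heart had 5570 CPM and the spleen 7954 CPM, and at 8 or more the heart had 6299 CPM and the spleen 10660 CPM. The heart thus stood above the spleen at the low counts and below it at the high counts. Of the cycling cells, 66 of 519 in the heart and 56 of 183 in the spleen had 8 or more marker UMIs.

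The non-cycling class can hold cells in or near the cycle whose markers were missed in the 1000 drawn UMIs. Cells with no UMI of the 10 proliferation genes among all their UMIs numbered 1352 in the heart and 4121 in the spleen. Their histone sum was 280.0 CPM in the heart and 236 CPM in the spleen, a smaller difference than in all non-cycling cells. Barcodes with under 100 UMIs, which mostly hold free RNA, gave 776 CPM (733 to 820) for the heart and 541 CPM (514 to 568) for the spleen. These levels lay above those of the non-cycling cells in both libraries, and the part of free RNA in the non-cycling values was not tested.

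**Figure D2:**
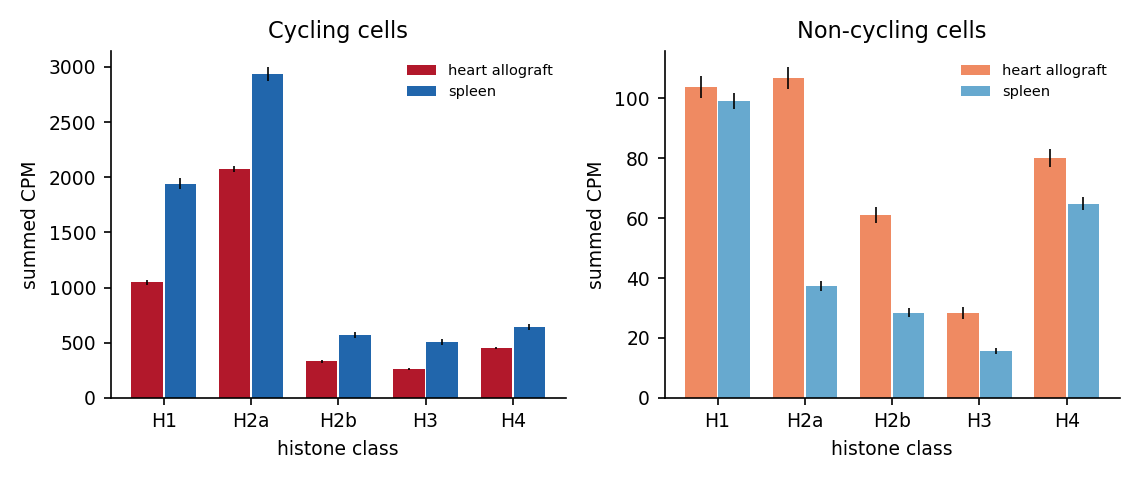
Summed CPM of each histone class in cycling cells (left) and non-cycling cells (right) of heart allograft and spleen, with 95% counting intervals; the 2 panels have different linear scales. All 5 classes were lower in cycling heart than in cycling spleen cells, and in non-cycling cells the heart bar is the higher one, narrowly for H1.

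By class, H2a gave the most captured UMIs in cycling cells and H1 the next most. In cycling cells H1 summed to 1046 CPM in the heart and 1939 CPM in the spleen, H2a to 2079 CPM in the heart and 2935 CPM in the spleen, and H2b to 330.0 CPM in the heart and 572 CPM in the spleen. H3 summed to 259 CPM in the heart and 506 CPM in the spleen, and H4 to 452 CPM in the heart and 639 CPM in the spleen. The ratios of heart to spleen ran from 0.511 for H3 to 0.708 for H2a, so that no class was higher in cycling heart cells. In non-cycling cells H2a stayed the highest class in the heart and H1 was the highest in the spleen. H2a was 107 CPM in the heart and 37.2 CPM in the spleen, a ratio of 2.87 (2.71 to 3.04), and H2b was 61.0 CPM in the heart and 28.4 CPM in the spleen, a ratio of 2.15. H3 was 28.3 CPM in the heart and 15.6 CPM in the spleen, and H4 was 80.0 CPM in the heart and 64.9 CPM in the spleen. H1 was 104 CPM in the heart and 98.95 CPM in the spleen, a ratio of 1.05 (1.003 to 1.10). In cells with no UMI of a proliferation gene H1 was lower in the heart, at 76.9 CPM against 93.4 CPM in the spleen, while H2a stayed higher at 64.0 CPM in the heart against 36.3 CPM in the spleen. H2a held 49.9% of histone UMIs in cycling heart cells and 44.5% in cycling spleen cells, against 28.1% in non-cycling heart cells and 15.2% in non-cycling spleen cells.

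The 4 clusters did not behave alike. Hist1 carried most of the signal, with 3955 CPM in cycling and 327 CPM in non-cycling heart cells, and 6268 CPM in cycling and 191 CPM in non-cycling spleen cells. Hist2 had 171 CPM in cycling and 30.9 CPM in non-cycling heart cells, and 297 CPM in cycling and 30.8 CPM in non-cycling spleen cells. Hist3, with Hist3h2a and Hist3h2ba as its members, stood apart. It had 33.0 CPM in cycling and 18.0 CPM in non-cycling heart cells, a ratio of 1.83 (1.60 to 2.10), and 18.1 CPM in cycling and 20.2 CPM in non-cycling spleen cells, a ratio of 0.895 (0.668 to 1.18). The single Hist4 gene, Hist4h4, had 5.44 CPM in cycling and 3.90 CPM in non-cycling heart cells, and 8.37 CPM in cycling and 3.23 CPM in non-cycling spleen cells.

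**Figure D3:**
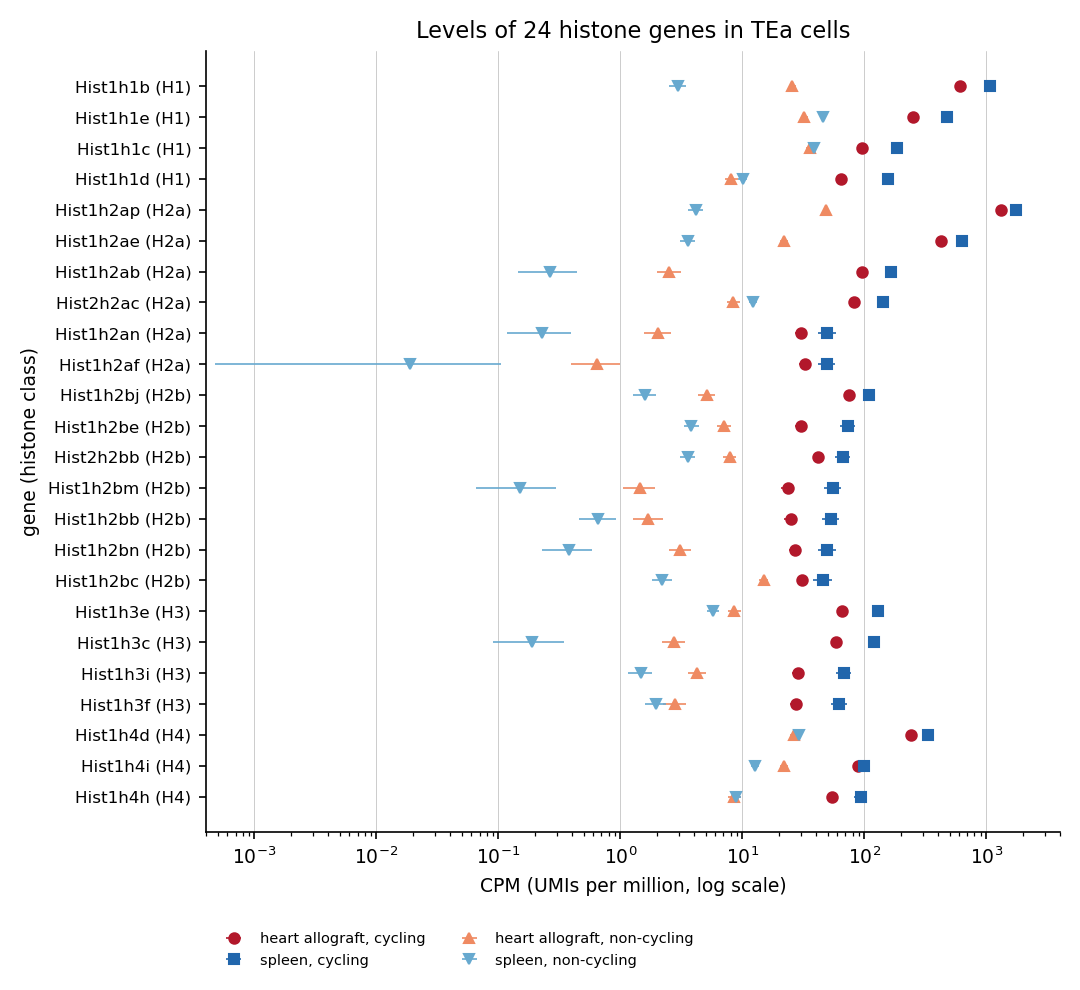
CPM (log scale) of the 24 most abundant histone genes, grouped by class, in cycling and non-cycling cells of heart allograft and spleen, with 95% counting intervals. Cycling cells of both tissues lie to the right of non-cycling cells for all 24 genes, and the non-cycling heart and spleen points lie far apart for Hist1h2ap and Hist1h1b and close together for Hist1h1c and Hist1h4d.

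Of the 69 members, 45 reached 10 CPM in at least 1 of the 4 groups of cells, and the 24 highest are those in the plot of levels by gene. The 24 members under 10 CPM reached at most 9.59 CPM. Among them Hist1h2aa and Hist1h2ba, which encode testis-specific core histones, had no UMI in either library, as did Hist1h2bq and Hist1h2br. Taken as up to 3 UMIs, a count of 0 allows 0.0712 CPM in the heart and 0.0534 CPM in the spleen, of molecules whose reads could be assigned. Only 4.7% of the 91-base stretches of the Hist1h2bq transcript and 13.2% of those of Hist1h2br occur in no other annotated gene, so this limit does not bound their expression. Hist1h1t, the testis-specific linker histone, was at 0 in the spleen and had 1 UMI in the heart.

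The most abundant member was Hist1h2ap, an H2a gene at chr13:21833026-21833507 on the minus strand. It had 1312 CPM in cycling and 48.8 CPM in non-cycling heart cells, and 1753 CPM in cycling and 4.14 CPM in non-cycling spleen cells. The step between cycling and non-cycling cells was 26.9-fold in the heart and 424-fold in the spleen. In non-cycling cells it was therefore 11.8-fold (10.2 to 13.7) higher in the heart, and in cells with no UMI of a proliferation gene it was 23.4 CPM in the heart and 3.28 CPM in the spleen. Barcodes under 100 UMIs gave 171 CPM of it for the heart and 54.4 CPM for the spleen. Hist1h2ap alone held 31.5% of histone UMIs in cycling heart cells and 26.6% in cycling spleen cells. Near-identical H2a copies limit this value: only 7.7% of the 91-base stretches of its transcript occur in no other annotated gene, so reads of other copies could have been assigned to it or dropped. The share was 46.5% for Hist1h2ab, 33.7% for Hist1h2af, 27.7% for Hist1h3i and 16.2% for Hist1h2an, whose levels are uncertain in the same way. Across the members, 26 had under 50% of such stretches unique and 6 had all of them unique, and a read length of 91 bases is assumed here.

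Hist1h1b and Hist1h2ae showed the same layout of the 4 groups. Hist1h1b (chr13:21779883-21780625), a linker histone gene whose transcript is unique in all its stretches, had 603 CPM in cycling and 25.7 CPM in non-cycling heart cells, and 1080.0 CPM in cycling and 2.95 CPM in non-cycling spleen cells. Hist1h2ae (chr13:23570517-23571220), an H2a gene, had 423 CPM in cycling and 22.0 CPM in non-cycling heart cells, and 633 CPM in cycling and 3.57 CPM in non-cycling spleen cells. In non-cycling cells Hist1h1b was 8.69-fold (7.32 to 10.4) and Hist1h2ae 6.15-fold (5.23 to 7.26) higher in the heart, so the groups were well apart by counting error. In cells with no UMI of a proliferation gene Hist1h1b was 10.9 CPM in the heart and 1.85 CPM in the spleen. Hist1h2ae was 11.7 CPM in such heart cells and 3.13 CPM in such spleen cells. Barcodes under 100 UMIs gave 66.6 CPM of Hist1h1b for the heart and 45.3 CPM for the spleen. Of Hist1h2ae they gave 28.6 CPM for the heart and 16.2 CPM for the spleen. Hist1h2bc, an H2b gene, had a smaller step in the heart, of 2.08-fold between cycling and non-cycling cells. It had 31.0 CPM in cycling and 14.9 CPM in non-cycling heart cells, and 45.5 CPM in cycling and 2.20 CPM in non-cycling spleen cells. In cells with no UMI of a proliferation gene it was 9.18 CPM in the heart and 1.73 CPM in the spleen. Barcodes under 100 UMIs gave 18.7 CPM of it for the heart and 6.32 CPM for the spleen. These genes and Hist1h2ap were the 4 members at least 2-fold higher in non-cycling heart cells among 11 with enough UMIs, where 9.01% of all genes were higher. Each of the 4 reached 10 CPM only in the heart and was counted through that level. None of the 11 was 2-fold lower in the heart, where 9.74% of all genes were lower. The median log2 difference was 0.07 for the 11 members and −0.14 for all genes tested. Without a minimum CPM, 14 of 64 members were higher, where 5.86% of all genes were, and 1 was lower, where 7.75% were.

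For 3 other linker histone genes the non-cycling level was not higher in the heart than in the spleen. Hist1h1e (chr13:23620629-23622558) had 252 CPM in cycling and 32.3 CPM in non-cycling heart cells, and 475 CPM in cycling and 46.2 CPM in non-cycling spleen cells. Hist1h1c (chr13:23738808-23740367) had 95.8 CPM in cycling and 35.6 CPM in non-cycling heart cells, and 184 CPM in cycling and 39.0 CPM in non-cycling spleen cells. Hist1h1d (chr13:23553262-23560686) had 64.7 CPM in cycling and 8.12 CPM in non-cycling heart cells, and 155 CPM in cycling and 10.0 CPM in non-cycling spleen cells. All 3 were lower in the heart than in the spleen in cycling and in non-cycling cells, with ratios in non-cycling cells of 0.698 (0.648 to 0.752) for Hist1h1e, 0.913 (0.849 to 0.983) for Hist1h1c and 0.809 (0.694 to 0.941) for Hist1h1d. Among the 45 members with at least 10 CPM, 34 had a non-cycling ratio of heart to spleen whose interval lay above 1, 6 had one below 1 and 5 had one that held 1. The 6 were Hist1h1c, Hist1h1d, Hist1h1e, Hist1h4d, Hist2h2ac and Hist2h3b. In cycling cells 40 had an interval below 1, 1 had it above 1 and 4 had one that held 1. These intervals cover counting error only, and the share of all genes with an interval off 1 was not counted. The counts therefore do not show that histone genes differed between the tissues more often than other genes. Of the 45 members, 11 had at least 10 CPM in non-cycling cells of either tissue.

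Among the further H2a genes, the step between cycling and non-cycling cells ranged widely. Hist1h2ab had 95.6 CPM in cycling and 2.53 CPM in non-cycling heart cells, and 164 CPM in cycling and 0.263 CPM, which is 14 UMIs, in non-cycling spleen cells. Hist1h2an had 30.1 CPM in cycling and 2.02 CPM in non-cycling heart cells, and 49.5 CPM in cycling and 0.226 CPM in non-cycling spleen cells. Hist1h2af had 32.3 CPM in cycling and 0.640 CPM in non-cycling heart cells, and 49.2 CPM in cycling and 0.0188 CPM in non-cycling spleen cells. That last value is a single UMI, and the ratio of 2617 that it gives has an interval of 462 to 104050. Hist2h2ac had 82.5 CPM in cycling and 8.41 CPM in non-cycling heart cells, and 143 CPM in cycling and 12.3 CPM in non-cycling spleen cells, a step of 9.81-fold in the heart and 11.6-fold in the spleen.

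The H2b genes were lower in captured level, and more of them passed the 2-fold mark between tissues. Hist1h2bj, the highest, had 74.6 CPM in cycling and 5.09 CPM in non-cycling heart cells, and 109 CPM in cycling and 1.58 CPM in non-cycling spleen cells. Hist1h2be had 30.1 CPM in cycling and 7.13 CPM in non-cycling heart cells, and 73.0 CPM in cycling and 3.82 CPM in non-cycling spleen cells. Hist2h2bb had 41.6 CPM in cycling and 7.87 CPM in non-cycling heart cells, and 66.6 CPM in cycling and 3.55 CPM in non-cycling spleen cells. For each of these 3 genes the heart was below the spleen in cycling cells and above it in non-cycling cells. Hist1h2bm had 23.6 CPM in cycling and 1.44 CPM in non-cycling heart cells, and 54.9 CPM in cycling and 0.150 CPM in non-cycling spleen cells. Hist1h2bb had 24.9 CPM in cycling and 1.70 CPM in non-cycling heart cells, and 52.9 CPM in cycling and 0.658 CPM in non-cycling spleen cells. Hist1h2bn had 26.9 CPM in cycling and 3.10 CPM in non-cycling heart cells, and 49.5 CPM in cycling and 0.376 CPM in non-cycling spleen cells. These 3 were close in cycling heart cells, and in non-cycling spleen cells all 3 were under 1 CPM. In non-cycling heart cells Hist1h2bn was above Hist1h2bm and Hist1h2bb.

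Among H3 genes Hist1h3e was the highest, with 65.9 CPM in cycling and 8.60 CPM in non-cycling heart cells, and 129 CPM in cycling and 5.79 CPM in non-cycling spleen cells. Hist1h3c had 58.1 CPM in cycling and 2.75 CPM in non-cycling heart cells, and 119 CPM in cycling and 0.188 CPM, which is 10 UMIs, in non-cycling spleen cells. The pair were thus close in cycling cells and far apart in non-cycling spleen cells. Hist1h3i had 28.8 CPM in cycling and 4.29 CPM in non-cycling heart cells, and 67.9 CPM in cycling and 1.47 CPM in non-cycling spleen cells. Hist1h3f had 27.5 CPM in cycling and 2.78 CPM in non-cycling heart cells, and 62.2 CPM in cycling and 1.96 CPM in non-cycling spleen cells.

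The H4 genes encode essentially the same protein, and their captured levels changed least between cycling and non-cycling cells of the spleen among the 5 classes, by 9.85-fold, against 5.64-fold in the heart. Hist1h4d (chr13:23581598-23582735), the highest, had 243 CPM in cycling and 26.4 CPM in non-cycling heart cells, and 330.0 CPM in cycling and 28.9 CPM in non-cycling spleen cells. Hist1h4i had 88.4 CPM in cycling and 21.9 CPM in non-cycling heart cells, and 99.4 CPM in cycling and 12.8 CPM in non-cycling spleen cells. Hist1h4h had 54.5 CPM in cycling and 8.57 CPM in non-cycling heart cells, and 93.7 CPM in cycling and 8.84 CPM in non-cycling spleen cells. All 3 kept over 8 CPM in the non-cycling cells of both tissues.

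In cycling cells, 12 of the 45 members were at least 2-fold lower in the heart than in the spleen, where 7.15% of all genes were lower, and none was higher, where 4.85% of all genes were. They were 6 H2b genes (Hist1h2bb, Hist1h2be, Hist1h2bf, Hist1h2bh, Hist1h2bl and Hist1h2bm), 4 H3 genes (Hist1h3c, Hist1h3f, Hist1h3g and Hist1h3i), the linker histone gene Hist1h1d and the H4 gene Hist2h4. No H2a gene was among them. Of the 12, Hist1h2bf, Hist1h2bl, Hist1h3g and Hist2h4 reached 10 CPM only in the spleen and were counted through that level. Without a minimum CPM, 15 of 64 members were lower, where 8.32% of all genes were. The median log2 difference was −0.77 over the 45 members and −0.17 over all genes tested. Erythroid marker genes summed to 0.276 CPM in cycling heart cells and 297 CPM in cycling spleen cells, and 3 cycling spleen cells had 3 or more erythroid UMIs. Without cells of under 10 T cell marker UMIs the cycling sums were 4160 CPM in the heart and 6850 CPM in the spleen, so the heart stayed below the spleen. That limit does not select on erythroid UMIs, and sums without the cells that carried them were not taken. The markers of T cells were at 10142 CPM in cycling heart cells and 9856 CPM in cycling spleen cells, and Cd4 at 96.5 CPM in the heart and 115 CPM in the spleen. The CD8 genes stood at 19.7 CPM in the heart and 5.35 CPM in the spleen, and cardiomyocyte markers were at 0 in all 4 groups of cells.

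A few members outside the 24 highest, singled out after their values were seen, did not follow the rest. Hist3h2ba, an H2b gene, had 23.95 CPM in cycling and 11.2 CPM in non-cycling heart cells, and 14.1 CPM in cycling and 10.6 CPM in non-cycling spleen cells. Hist3h2a, its H2a neighbour, had 9.03 CPM in cycling and 6.81 CPM in non-cycling heart cells, and 4.02 CPM in cycling and 9.59 CPM in non-cycling spleen cells, a ratio of 0.419 (0.215 to 0.738) in the spleen. Hist3h2ba was the member of the 44 in the spleen that was not 2-fold higher in cycling cells, and of the 45 members with at least 10 CPM it was the 1 whose cycling ratio of heart to spleen had an interval above 1, at 1.70 (1.23 to 2.42). The ratio of Hist3h2a, under 10 CPM, was 2.25 (1.23 to 4.499). Hist2h2be, an H2b gene, was lower in the heart in both kinds of cell: it had 1.38 CPM in cycling heart cells against 8.37 CPM in cycling spleen cells, and 0.576 CPM in non-cycling heart cells against 3.10 CPM in non-cycling spleen cells.

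The stem-loop that ends these mRNAs was searched for in the GENCODE M21 transcripts, on the GRCm38 assembly that the build name mm10 denotes, as a perfect 6-base stem starting with GG around a 4-base loop starting with TT. It was found in 42 of the 69 members, in 6 forms, printed as DNA with the loop in capitals because the classes divide by stem. The first form was shared by 24 members of H1, H2a, H2b and H3, among them Hist1h2ap at chr13:21833029-21833044 on the minus strand. All 11 H4 genes with a stem-loop had another stem.
H1, H2a, H2b and H3, 24 members: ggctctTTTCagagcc
H1, H2b and H3, 6 members including Hist1h3e: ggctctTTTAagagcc
H2a, Hist2h2ac: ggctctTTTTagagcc
H4, 7 members including Hist1h4d: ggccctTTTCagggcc
H4, Hist1h4i and Hist2h4: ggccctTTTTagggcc
H4, Hist1h4b and Hist1h4j: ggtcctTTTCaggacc

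**Figure D4:**
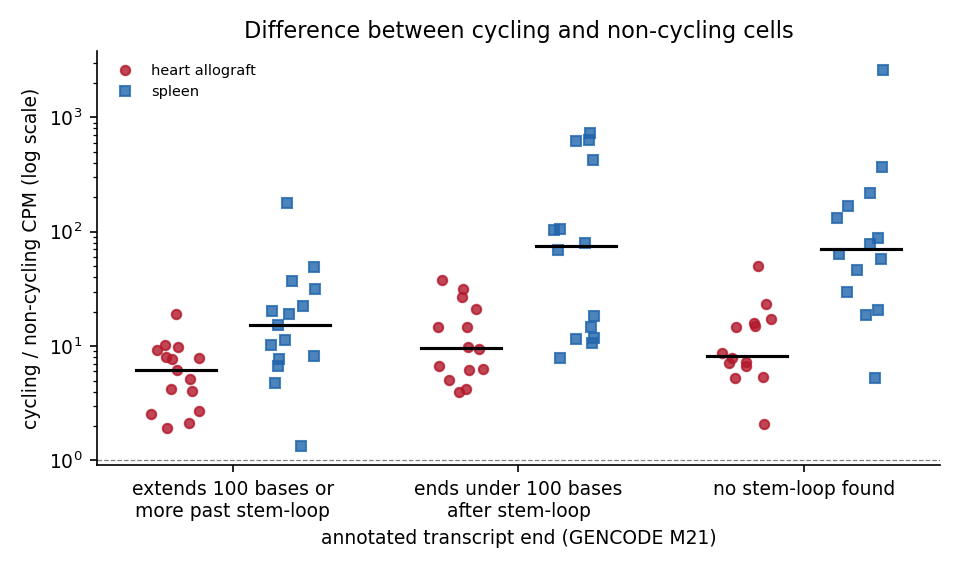
Ratio of cycling to non-cycling CPM (log scale) of each histone gene with at least 10 CPM, by where its annotated transcript ends, in heart allograft (red circles) and spleen (blue squares); black lines are medians and the dashed line marks equal levels. Genes annotated to run 100 bases or more past the stem-loop have the lowest median in both tissues, 6.23 in the heart and 15.4 in the spleen.

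The members were then divided by how far the annotated transcript runs past the stem-loop. In 21 it extended 100 bases or more, in 21 it ended nearer, in 25 no stem-loop lay in the annotated transcript, and 2, Hist1h2bm and Hist1h2bh, were not in that annotation under their identifiers. The extended ones include Hist1h1e, with 1153 bases after the stem-loop, Hist1h1c with 840 and Hist1h4d with 770, while Hist1h2ap ends 3 bases after it and Hist1h2ab 11. Together the extended members held 33.5% of histone UMIs in cycling and 54.3% in non-cycling heart cells, and 34.7% in cycling and 75.7% in non-cycling spleen cells. Those ending near the stem-loop held 44.0% in cycling and 26.3% in non-cycling heart cells, and 40.1% in cycling and 15.8% in non-cycling spleen cells. The extended members thus made up more of the histone UMIs outside the cycle in both tissues. Their summed level was 6.77-fold higher in cycling than in non-cycling cells of the heart and 12.3-fold higher in the spleen, against 18.4-fold in the heart and 68.4-fold in the spleen for those ending near the stem-loop. For members with no stem-loop in the annotated transcript it was 12.6-fold in the heart and 76.8-fold in the spleen. The groups overlapped gene by gene: Hist1h2ae, whose transcript runs 151 bases on, changed 177-fold in the spleen, and Hist2h2ac, which ends 57 bases after the stem-loop, changed 11.6-fold. Where an annotated transcript ends does not show where the captured molecules ended, since positions of reads were not used here.

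Promoters of the 5 classes are shown for the most abundant member of each that has an entry in RefSeq, on GRCm38.p6, from 250 bases before to 50 after the annotated start, 5′ to 3′ on the gene's strand. Capitals mark runs of letters searched on both strands, some of which overlap: CCAAT, the box of that name, then TATAA, the letters of the TATA box, then TGCAAAT, the octamer letters, and AAACACA, an element known from H1 promoters. They are shown so that the classes can be set beside each other.
Hist1h1b, chr13:21780576-21780875, minus strand: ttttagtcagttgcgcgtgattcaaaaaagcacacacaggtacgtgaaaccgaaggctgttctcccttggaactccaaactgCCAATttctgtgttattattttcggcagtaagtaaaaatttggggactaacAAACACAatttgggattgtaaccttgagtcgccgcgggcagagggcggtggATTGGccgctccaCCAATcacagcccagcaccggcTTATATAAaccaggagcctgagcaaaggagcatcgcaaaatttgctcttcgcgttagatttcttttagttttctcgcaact
Hist1h2ap, chr13:21833426-21833725, minus strand: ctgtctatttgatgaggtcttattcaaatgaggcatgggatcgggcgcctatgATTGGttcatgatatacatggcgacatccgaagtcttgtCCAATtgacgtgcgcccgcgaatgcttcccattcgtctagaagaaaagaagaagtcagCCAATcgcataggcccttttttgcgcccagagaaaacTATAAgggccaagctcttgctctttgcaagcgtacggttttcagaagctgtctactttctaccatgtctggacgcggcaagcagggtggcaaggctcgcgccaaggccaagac
Hist1h2bj, chr13:22042948-22043247, plus strand: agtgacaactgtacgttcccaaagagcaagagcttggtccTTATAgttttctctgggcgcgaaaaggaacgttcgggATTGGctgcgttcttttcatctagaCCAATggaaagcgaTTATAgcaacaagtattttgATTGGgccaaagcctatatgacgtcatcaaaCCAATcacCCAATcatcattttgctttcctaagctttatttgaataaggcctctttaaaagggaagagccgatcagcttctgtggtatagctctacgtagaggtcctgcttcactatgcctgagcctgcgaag
Hist1h3e, chr13:23562336-23562635, minus strand: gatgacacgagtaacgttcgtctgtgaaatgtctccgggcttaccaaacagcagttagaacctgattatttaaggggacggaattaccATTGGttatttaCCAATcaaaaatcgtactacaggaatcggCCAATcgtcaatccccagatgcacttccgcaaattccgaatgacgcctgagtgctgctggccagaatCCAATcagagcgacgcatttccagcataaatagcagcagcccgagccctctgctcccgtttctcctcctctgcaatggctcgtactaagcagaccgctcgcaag
Hist1h4d, chr13:23581318-23581617, plus strand: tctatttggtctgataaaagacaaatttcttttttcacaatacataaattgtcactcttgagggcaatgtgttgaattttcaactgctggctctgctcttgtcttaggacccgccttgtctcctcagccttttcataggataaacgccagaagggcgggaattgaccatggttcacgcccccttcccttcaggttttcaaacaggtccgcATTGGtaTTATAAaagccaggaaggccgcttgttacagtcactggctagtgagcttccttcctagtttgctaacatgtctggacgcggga

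Promoters of 60 members were matched by their older symbols. CCAAT stood in 51 of them, or 85.0%, against 37.4% of 32544 distinct promoters of all genes. It was present in 6 of 6 H1, 18 of 18 H2a, 14 of 14 H2b and 10 of 10 H3 promoters and in 3 of 12 H4 promoters, those of Hist1h4a, Hist1h4c and Hist1h4d. TATAA stood in 49 of 60, or 81.7%, against 24.8% of all promoters, and was least frequent in H3, with 5 of 10. TGCAAAT stood in 7 of 18 H2a and 5 of 14 H2b promoters and in no other class, against 4.04% of all promoters. AAACACA stood in 5 of 6 H1 promoters, 2 of 18 H2a and 1 of 14 H2b promoters, against 7.2% of all promoters. Some promoters of H2a and H2b genes on opposite strands overlap, so 1 run of letters can be counted in both classes. Among those with TGCAAAT this holds for Hist1h2ae and Hist1h2bg, Hist1h2ah and Hist1h2bk, and Hist1h2aa and Hist1h2ba. The last pair also both had AAACACA. The promoters are therefore not all separate stretches of DNA. A match is a run of letters and not a bound site.

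**Figure D5:**
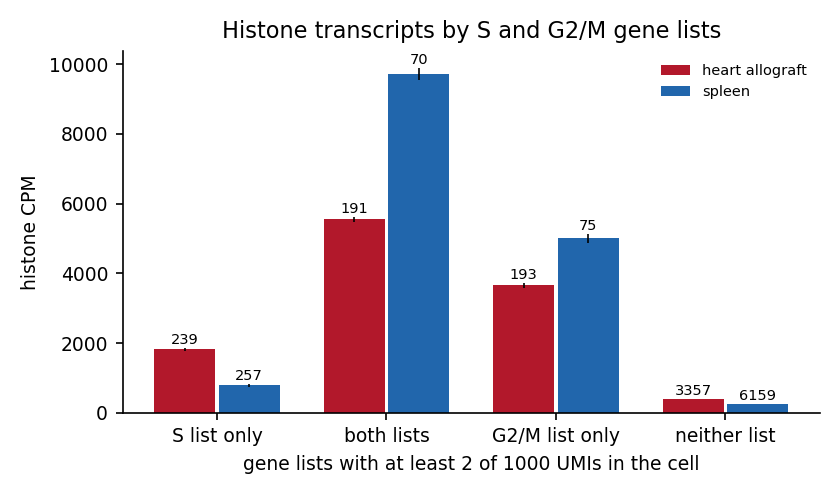
Summed histone CPM of T cells by whether at least 2 of 1000 drawn UMIs came from a 20-gene S list, a 20-gene G2/M list, both or neither, with 95% counting intervals; numbers above the bars are cells. Bars are highest in cells with both lists and stand higher with the G2/M list alone than with the S list alone in both tissues. All T cells are included, cycling or not.

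Among cycling cells, the histone sum was not higher in those placed in S than in those placed in G2/M. A cycling cell was placed in S or G2/M by which of 2 lists of 20 genes had more of its 1000 drawn UMIs, with 83 ties in the heart and 12 in the spleen. Of the 10 proliferation genes that defined cycling, Mki67, Top2a, Birc5, Cdk1, Ccnb2, Nusap1 and Ube2c are also on the G2/M list. Only Rrm2 and Tyms are on the S list. Together the 10 genes were at 3555 CPM in S and 4652 CPM in G2/M cells of the heart. In the spleen they were at 3877 CPM in S and 7398 CPM in G2/M cells. How much of the histone difference follows from this overlap was not tested. The histone sum was 3916 CPM in 153 S cells and 4404 CPM in 283 G2/M cells of the heart, a log2 difference of −0.17. In the spleen it was 4814 CPM in 56 S cells and 7989 CPM in 115 G2/M cells, a log2 difference of −0.73. The median cell of the heart went the other way, with 3502 histone CPM in S and 3216 in G2/M. In the spleen the median cell had 1073 histone CPM in S and 6378 in G2/M. The S list itself was at 3247 CPM in S and 1767 CPM in G2/M cells of the heart, and at 4221 CPM in S and 1808 CPM in G2/M cells of the spleen, as the choice of cells fixes. In the heart 0 of 38 members were 2-fold higher in S cells, where 0.446% of all genes were, and 0 were lower, where 0.816% were. In the spleen 0 of 48 were higher, where 6.23% of all genes were, and 13 were lower, where 4.47% were. Some of the 13, Hist1h2bp among them, reached 10 CPM only in the G2/M cells. Hist1h2ap had 1255 CPM in S and 1354 CPM in G2/M cells of the heart, and 1086 CPM in S and 2220 CPM in G2/M cells of the spleen. Hist1h1a, a linker histone gene singled out after its values were seen, went the other way, with 37.8 CPM in S and 26.8 CPM in G2/M cells of the heart and 56.0 CPM in S and 43.0 CPM in G2/M cells of the spleen. For the histone sum, the sign of the small difference between S and G2/M cells of the heart changed under 3 other settings. In the spleen the sign for the sum changed under 1, where cycling cells needed at least 5 marker UMIs and the log2 difference was 0.16.

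Dividing all T cells by both lists placed the highest histone level in cells that carried both. With at least 2 of 1000 UMIs of each list, 191 heart cells had 5552 CPM (5483 to 5620) and 70 spleen cells had 9721 CPM (9552 to 9892). With the S list alone, 239 heart cells had 1824 CPM (1782 to 1867) and 257 spleen cells had 788 CPM (755 to 822). With the G2/M list alone, 193 heart cells had 3654 CPM (3592 to 3718) and 75 spleen cells had 5003 CPM (4872 to 5137). The heart was the higher tissue in the S-only cells and the lower one in cells with the G2/M list or with both. The S-only group can hold non-cycling cells. In non-cycling cells the S list stood at 415 CPM in the heart and 288 CPM in the spleen. The G2/M list stood there at 199 CPM in the heart and 52.5 CPM in the spleen. How many of the S-only cells were cycling was not counted. With neither list, 3357 heart cells had 391 CPM and 6159 spleen cells had 244 CPM. Slbp, which binds the stem-loop, was highest in cells with both lists as well, at 333 CPM in the heart and 383 CPM in the spleen. With 1 list alone it was higher with the S list. It was at 265 CPM in the S-only cells of the heart and 174 CPM in those of the spleen, against 172 CPM in the G2/M-only cells of the heart and 87.1 CPM in those of the spleen. H2afx was at 104 CPM in the S-only cells of the heart and 70.4 CPM in those of the spleen, against 377 CPM in the G2/M-only cells of the heart and 733 CPM in those of the spleen.

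The histone genes that lie outside the clusters, most of which have polyadenylated mRNAs and proteins used independently of replication, had a smaller median change. H2afx came nearest to the clusters, with log2 differences of 2.92 in the heart and 3.17 in the spleen. The medians of the cluster members were 2.85 in the heart and 3.92 in the spleen. Of 11 such genes 9 had enough UMIs, and 4 were 2-fold higher in cycling cells of the heart (H2afz, H2afx, H2afv and Cenpa) and 5 in the spleen (these and H1f0), where 8.57% of all genes were in the heart and 11.9% in the spleen, with median log2 differences of 1.0 in the heart and 1.11 in the spleen. H2afz, the variant found at active promoters, had 2342 CPM in cycling and 685 CPM in non-cycling heart cells, and 3202 CPM in cycling and 471 CPM in non-cycling spleen cells. H2afx, whose protein is phosphorylated at DNA breaks, had 324 CPM in cycling and 41.9 CPM in non-cycling heart cells, and 527 CPM in cycling and 57.8 CPM in non-cycling spleen cells. The replacement H3 genes were nearly flat: H3f3a had 1676 CPM in cycling and 1290.0 CPM in non-cycling heart cells, and 1930 CPM in cycling and 1334 CPM in non-cycling spleen cells. H3f3b had 2486 CPM in cycling and 2094 CPM in non-cycling heart cells, and 1909 CPM in cycling and 1482 CPM in non-cycling spleen cells. H1f0, a linker histone known from differentiated, resting cells, had 19.99 CPM in cycling and 9.50 CPM in non-cycling heart cells, and 32.8 CPM in cycling and 14.6 CPM in non-cycling spleen cells.

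Genes that process histone transcripts and genes that carry histone proteins were set beside the clusters. Of 14 genes for histone transcription and 3' end processing, 12 had enough UMIs in the heart and 13 in the spleen, and 1 was 2-fold higher in cycling heart cells (Slbp) and 2 in cycling spleen cells (Slbp and Eri1, an exonuclease that trims histone mRNA ends). These counts are near the shares over all genes, 8.57% in the heart and 11.9% in the spleen. Slbp had 269 CPM in cycling and 115 CPM in non-cycling heart cells, and 281 CPM in cycling and 52.1 CPM in non-cycling spleen cells. Between non-cycling heart and non-cycling spleen cells, Slbp was the 1 gene of the list that was 2-fold higher, and Cpsf3 and Zc3h8 were 2-fold lower, of 12 with enough UMIs; over all genes 9.01% were higher and 9.74% lower. Of 12 histone chaperone genes, 9 were 2-fold higher in cycling cells of each tissue, beside 8.57% of all genes in the heart and 11.9% in the spleen. Asf1b, which hands H3 and H4 to the chromatin assembly factor, had 99.2 CPM in cycling and 6.397 CPM in non-cycling heart cells, and 177 CPM in cycling and 5.15 CPM in non-cycling spleen cells. Nasp, which holds the cell's store of H3 and H4, had 228 CPM in cycling and 120 CPM in non-cycling heart cells, and 202 CPM in cycling and 59.4 CPM in non-cycling spleen cells. Mki67, one of the proliferation genes that defined cycling, had 361 CPM in cycling and 20.7 CPM in non-cycling heart cells, and 650 CPM in cycling and 6.26 CPM in non-cycling spleen cells.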

How the data were processed

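TEa cells were sorted and profiled with droplet 3' v3 chemistry; the labels' protocols also speak of a nuclei suspension. The deposited matrices hold the authors' UMI counts, not normalized, for each gene and barcode. They were written, per the file headers, by Cell Ranger 3.0.2, whereas Cell Ranger 7.0.0 and Seurat 4.0.0, with mm10, stand in the submitters' processing notes. How intronic and multi-mapped reads were counted is not stated there.

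Each wild-type matrix lists 6794880 barcodes. Limits of 1000 or more UMIs, 500 or more genes and no more than 10% mitochondrial UMIs left 4074 heart and 6583 spleen barcodes. T cells needed at least 1 UMI of Cd3d, Cd3e, Cd3g, Trac, Trbc1 or Trbc2 and under 3 UMIs each of monocyte and of B cell markers. That removed 89 heart and 10 spleen barcodes with monocyte markers. No doublet caller was run, so doublets can remain. The kept cells of the libraries shared 6 barcodes. The Ldha-/- matrix was not used, since its rows carry no gene names.

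Cells were thinned to 1000 UMIs to call cycling and phase, and all UMIs were summed per library and class of cell. Sums are CPM with exact Poisson intervals, ratios have exact conditional binomial intervals, and shares have Clopper-Pearson intervals. Log2 differences use a pseudocount of 1 CPM, which understates those of low genes. The members and gene lists were chosen with earlier results of these data known. Members were named if they had at least 10 CPM in any of the 4 groups of cells, up to 24 by highest CPM and with the 2 highest of each class; H2afz, H2afx, H3f3a, H3f3b, H1f0, Slbp and Mki67 were always named, and any others were chosen after their values were seen. On simulated data for cycling against non-cycling spleen cells, with 200 of 6624 genes changed 4-fold, 100% were recovered and 0 unchanged genes were called, and ratio intervals covered 95.2%. The simulated counts held counting error only, and the changes were well past the 2-fold mark. They check the calculation and not how cells or libraries vary. Protein sequences were not used here. Python 3.11.15, numpy 2.4.6, pandas 2.3.3, scipy 1.17.1 and matplotlib 3.10.9 were used. Alternatives changed the cycling limit, thinning, seed, filters, totals, pseudocount and phase rule.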

Additional observations from a re-analysis of the deposited data

Results flagged for a closer look

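The difference between heart allograft and spleen had opposite signs in cycling and non-cycling cells, for the histone sum and for each class, and the difference between these differences was not tested. For all histone genes the log2 ratio of heart to spleen was −0.66 in cycling and 0.63 in non-cycling cells. It was −0.89 in cycling and 0.07 in non-cycling cells for H1, −0.50 and 1.496 for H2a, −0.79 and 1.08 for H2b, −0.97 and 0.82 for H3, and −0.50 and 0.30 for H4, in the same order. The H1 value did not keep its sign in non-cycling cells without any UMI of a proliferation gene, where H1 was 76.9 CPM in the heart and 93.4 CPM in the spleen. The direction in cycling cells depends on the summary, since the median cell was at 3146 CPM in the heart and 1932 CPM in the spleen.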

How the results depend on the processing

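No paired analysis was possible because each tissue has 1 library and the labels give no replicate numbers. Of 137 values under 19 alternatives, 63 kept direction and size, 70 moved beyond counting error or by over 1.5 times in a count, and 4 reversed. Values below are log2 differences of the histone sum, in the order heart to spleen in cycling cells (−0.66 as reported), heart to spleen in non-cycling cells (0.63), cycling to non-cycling cells in the heart (3.45) and in the spleen (4.74), and S to G2/M cells in the heart (−0.17) and in the spleen (−0.73); a value that did not move is left out and the comparison is then named. With a cycling limit of 1 marker UMI they were −0.16, 0.34, 3.29, 3.79, −0.25 and −1.04. With a limit of 3 the last 5 were 0.90, 3.301, 4.87, −0.017 and −0.56. Thinned to 2000 UMIs with a limit of 4, they were −0.74, 0.55, 3.63 and 4.93, and −0.61 for S to G2/M in the spleen. With another seed they were −0.70, 0.72, 3.29, 4.71, −0.039 and −0.81. Without cells over 3 times the median UMIs the last 5 were 0.42, 3.76, 4.82, 0.035 (reversed) and −0.95. With mitochondrial and ribosomal protein genes and Malat1 left out of the totals the last 5 were 0.48, 3.33, 4.45, −0.13 and −0.67; this moved the median of all genes between non-cycling heart and spleen cells to −0.34 from −0.14, and between cycling and non-cycling spleen cells to −0.23 from 0.10. As a mean of per-cell CPM they were −0.55, 0.44, 3.64, 4.63, −0.024 and −0.81. With a phase margin of 2 UMIs S to G2/M in the spleen was −0.82.

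Further alternatives were chosen after seeing the data. With a limit of 5 marker UMIs the values were −0.70, 1.48, 2.79, 4.96, 0.056 (reversed) and 0.16 (reversed). With non-cycling cells limited to those with 0 marker UMIs in all, heart to spleen was 0.24 in non-cycling cells, and cycling to non-cycling was 3.89 in the heart and 4.80 in the spleen. Without Stmn1 among the markers the last 5 were 1.06, 3.12, 4.86, 0.10 (reversed) and −0.29. Without Hist1h2ap they were −0.76, 0.46, 3.10 and 4.32, and −0.63 for S to G2/M in the spleen. With phases set on all UMIs, S to G2/M was −0.40 in the heart and −1.19 in the spleen. With at least 10 T cell marker UMIs, heart to spleen in cycling cells was −0.72 and cycling to non-cycling in the spleen 4.80.

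With at least 50 CPM in place of 10, fewer members could be counted. Lower in cycling heart than spleen cells were 7 of 20 in place of 12 of 45, beside 4.0% of all genes. Of the 7, only Hist1h1d and Hist1h3c also reached 50 CPM in the heart, and the others were counted through the spleen. Higher in cycling cells of the heart were 14 of 14 in place of 37 of 37, beside 9.34% of all genes. In the spleen these were 20 of 20 in place of 43 of 44, beside 13.9% of all genes. Lower in S than in G2/M cells of the spleen were 7 of 25 in place of 13 of 48, beside 3.58% of all genes. No member could be counted between non-cycling heart and spleen cells. With no minimum CPM, 14 of 64 in place of 4 of 11 were higher in non-cycling heart cells, beside 5.86% of all genes. There 1 in place of 0 was lower, beside 7.75% of all genes. In place of 0, 1 of 64 was higher in cycling heart than spleen cells, beside 3.94% of all genes. Also in place of 0, 1 of 63 was lower in cycling than in non-cycling spleen cells, beside 3.71%. Between S and G2/M cells of the heart, 1 of 64 in place of 0 was lower in S cells, beside 1.4%. Of these last 3 counts, the other totals also gave 1 of 52 for the first 2, beside 5.04% and 10.4% of all genes. A pseudocount of 0.1 gave 1 of 38 for the third, beside 0.98% of all genes. The causes of these changes were not tested.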
